A study of Homo sapiens with 4 samples.

Results

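The peaks described here are the m6A peaks that the authors' annotation placed at a start codon in OMM2.3, a human line of uveal melanoma cells. Its genotype is given as wild type, and the tumour mutations of the line were not examined here. They were taken from 2 deposited peak lists by their annotation, and each peak was counted a single time by chromosome, start, end and strand. There were 2292 such peaks among 41996 in all, 1338 of 22067 in the DMSO control (NC) and 954 of 19929 after 24 h with meclofenamic acid (MA). The peaks fell in 1592 genes: 592 had a start codon peak in both lists, 682 in NC only and 318 in MA only. These sets rest on the label, and the other list can hold an overlapping peak under another label. Each condition had 1 input library and 1 library of RNA fragments bound by an m6A antibody (RIP). No condition had a replicate, so no test between conditions was possible and every difference below describes these 4 libraries.

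N6-methyladenosine is set on mRNA by a complex built around METTL3 and METTL14, mostly at adenosines within a GGAC-like context, and is densest near stop codons and in 3' UTRs. The demethylases FTO and ALKBH5 remove it, and meclofenamic acid inhibits FTO in addition to the cyclooxygenases. The start codon is where the ribosome begins translation, and m6A in the 5' UTR next to it has been linked to initiation that does not depend on the cap-binding complex. Antibodies to m6A also bind N6,2'-O-dimethyladenosine (m6Am), a modification of an adenosine next to the cap, which FTO can remove as well.

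Melanocyte lineage genes were present: all 7 melanocyte markers were above 1 FPKM (a length- and depth-scaled read level), with a summed level of 7307 FPKM in NC and 3172 in MA. In such bulk samples fewer cells of a type and less RNA per cell cannot be told apart. Of the markers of other cell types that the gene table lists, none of 4 for epithelium and none of 2 for endothelium reached 1 FPKM, 1 of 4 for fibroblasts did (LUM, 4.96 FPKM in NC and 12.0 in MA) and 1 of 3 for immune cells (CD68, 111 and 89.9). As estimated from the FPKM values, the read totals of the inputs were 37041597 in NC and 41630895 in MA. The depth of the RIP libraries was not analysed here.

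The start codon label depended on the strand at gene starts. On the minus strand, a peak that began exactly at the gene start almost always carried it. In NC, 227 minus-strand peaks in genes matched to RefSeq had their 5' edge on a gene start, and 225 were labelled start codon, the other 2 stop codon. None of 1287 minus-strand 5' UTR peaks began there. In MA the 120 such peaks were all labelled start codon, and none of 1231 minus-strand 5' UTR peaks began at a gene start. They made up 37.3% of the 603 matched minus-strand start codon peaks of NC and 31.6% of the 380 of MA. On the plus strand only 2 of 544 start codon peaks in NC and 0 of 440 in MA began at the gene start. There the edges gathered 49 or 50 bp inside the gene, for 76 start codon and 219 5' UTR peaks in NC and for 40 and 148 in MA. The label thus took in peaks that began exactly on the gene start on the minus strand and almost none on the plus strand. Within 100 bp of the gene start began 47.6% of matched plus-strand start codon peaks in NC and 43.4% in MA. On the minus strand these shares were 63.8% and 54.7%, and for plus-strand 5' UTR peaks 36.6% and 29.3%. The main shares are also given without the start codon peaks that began on a gene start. These were 227 in NC (225 on the minus and 2 on the plus strand) and 120 in MA. Plus-strand peaks that began 49 or 50 bp inside stayed in those shares.

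**Figure D1:**
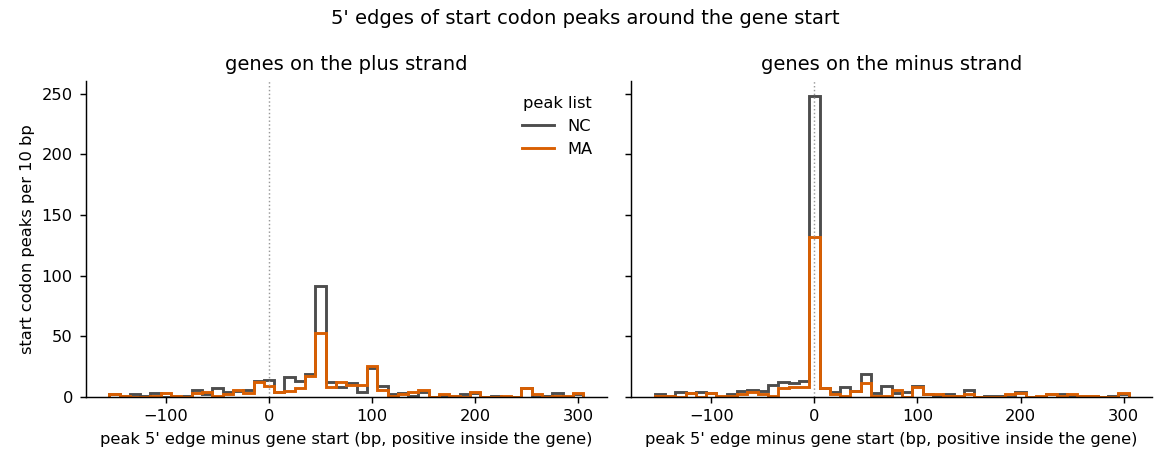
Number of start codon peaks per 10 bp (vertical axis) by the distance of the peak's 5' edge from the nearest RefSeq start of its gene in bp (horizontal axis, positive inside the gene), for plus-strand genes on the left and minus-strand genes on the right, NC in grey and MA in orange. Minus-strand peaks pile up at the gene start itself, 225 in NC and 120 in MA, while plus-strand peaks gather at 49 or 50 bp.

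The gene starts reached by these peaks are shown because their first transcribed base differed from that of other gene starts. The 8 lines below give 15 bases before and 15 bases from the start of genes whose peak began there in both lists, in order of fold enrichment in NC among genes with at least 5 FPKM in each input, with 1 chromosome left out. They are from RefSeq (GRCh38.p14), on the minus strand, read 5' to 3', and the capital marks the first transcribed base.
FKBP3: gcggcgggctggctcAgtaaagcggaggca
AP1B1: tacccgcgcgcgggcAgctcacttccgccc
HNRNPUL2: agcgggaggaactccGtcgtcctccgcgcg
SNAPC5: tgccgggccgacagcAgcccggaggttggc
ZNF668: tttgcacgctaagctAgccacacttccggc
DYNLT1: tgcgcagtccgcgccActcagggagccgga
TRIAP1: gtcgtcgccgccgccAccactgtcgccatg
LYSMD1: tttgggaaatgaagtCttttctcaaagacc

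The FKBP3 peak lay at chr14:45134234-45134481 in NC (248 bp) and chr14:45134333-45134481 in MA (149 bp), on GRCh38.p13 as are all peak positions here. The ZNF668 peak was the same in both lists, chr16:31073991-31074240. The TRIAP1 peaks were chr12:120444395-120446384 and chr12:120444491-120446384, and the printed window of this gene ends on an ATG. In 6 of these 8 the transcript began with A. Over the 273 gene starts on which a start codon peak began in either list, 185 did (67.8%, exact Clopper-Pearson 95% interval 61.9 to 73.3). Such intervals, here and below, cover counting error only. Among minus-strand starts of genes with at least 5 FPKM in each input that no such peak reached, 1548 of 3579 began with A (43.3%, 41.6 to 44.9), and over all 17329 minus-strand starts 45.2% did. Where the edge fell on the start in both lists the share was 77.0% of 74 (65.8 to 86.0), against 64.7% of 153 in NC only and 63.0% of 46 in MA only, intervals that overlap. The base was not particular to these peaks: it was A at 61.4% of 114 starts with a start codon peak 49 or 50 bp inside and at 62.5% of 432 with a 5' UTR peak there. The part of m6Am in these peaks was not tested. The letters GGAC, on the transcript strand, were in the first 50 bases of 18.3% of the 273 starts and of 18.9% of all 35116, and the reverse complement GTCC in 16.5% and 17.6%. ATG was in the first 50 bases of 92.5% of 80 starts with a peak labelled Exon 49 or 50 bp inside, of 28.1% of those with a start codon peak there and of 24.5% of those with a 5' UTR peak. It was in 39.2% of the 273 starts, in 40.2% of all gene starts and in 34.7% of those of genes with at least 5 FPKM in each input. These matches describe letters only.

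Start codon peaks were a larger share of the peak list in NC than in MA. They were 6.06% of NC peaks (5.75 to 6.39) and 4.79% of MA peaks (4.49 to 5.09). The gap was larger on the minus strand, where the shares were 6.78% and 4.79%. On the plus strand they were 5.41% (5.00 to 5.84) and 4.78% (4.38 to 5.21), so that the intervals overlapped. Without the peaks that began on a gene start the shares were 5.09% and 4.21%. When both lists were ranked and trimmed to the same number of peaks, they were 5.76% and 4.79%. Almost all genes held a single start codon peak: 1213 genes in NC and 868 in MA. AKAP9, a scaffold for kinases at the Golgi and centrosome, MBP, myelin basic protein, and TNRC6C, a partner of Argonaute, had 3 in NC. ARID4A and FGD4 had 3 in MA. No start codon peak lay on the mitochondrial chromosome.

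Start codon peaks resembled 5' UTR peaks in length and fold and crossed exon junctions in a larger share. The length is the exonic length in the list, and the fold (RIP against input) is the authors' own value for each peak, used only within its list. The median length was 250.0 bp in NC (quartiles 198 to 446) and 294 bp in MA (199 to 498), where all peaks had medians of 299 and 300.0. Of the NC start codon peaks 69.4% (66.9 to 71.9) ran over an exon junction, and of the MA peaks 74.1% (71.2 to 76.9), against 55.6% and 61.6% of 5' UTR peaks and 40.2% and 44.1% of all peaks. The median fold was 3.33 in NC, below the 3.57 of all NC peaks, and 3.00 in MA, where all peaks had 3.07. The 5' UTR peaks had median lengths of 250.0 and 299 bp and median folds of 3.33 and 3.00. Stop codon peaks were longer, with medians of 399 and 400.0 bp, and had median folds of 4.11 and 3.50.

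Most genes with a start codon peak held another peak as well. The start codon peak was the gene's only peak in 249 of 1274 NC genes (19.5%) and 171 of 910 MA genes (18.8%). Among the 1025 NC genes with another peak, 72.8% had one in the 3' UTR (69.9 to 75.5), beside 68.7% (67.7 to 69.7) of the 8241 genes whose peaks all lay outside the start codon. In MA it was 68.7% of 739 (65.3 to 72.1) beside 68.8% of 8165. A stop codon peak was present in 10.5% (8.72 to 12.6) of these NC genes beside 7.71% (7.14 to 8.30), and in 9.61% (7.58 to 12.0) beside 7.21% (6.66 to 7.80) in MA. Peaks labelled Exon were in 48.7% beside 47.0% in NC and in 50.6% beside 45.2% in MA, and 5' UTR peaks in 29.0% beside 29.8% and in 33.3% beside 28.5%.

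The share of genes with a start codon peak differed with the level of the transcript. In NC it was 1.35% of genes under 1 FPKM, 9.79% from 1 to 5, 13.1% from 5 to 20, 13.4% from 20 to 100 and 10.3% at 100 or more. In MA the shares were 0.799%, 6.34%, 8.69%, 10.2% and 7.16%. NC was above MA in each range, and the intervals overlapped only in the last and the first range. Genes with any peak followed a like course, at 22.9%, 86.0%, 89.0%, 78.9% and 58.2% in NC. Among genes with a peak the share with one at the start codon was 17.0% from 20 to 100 FPKM and 17.8% at 100 or more in NC, and 13.5% and 13.9% in MA.

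**Figure D2:**
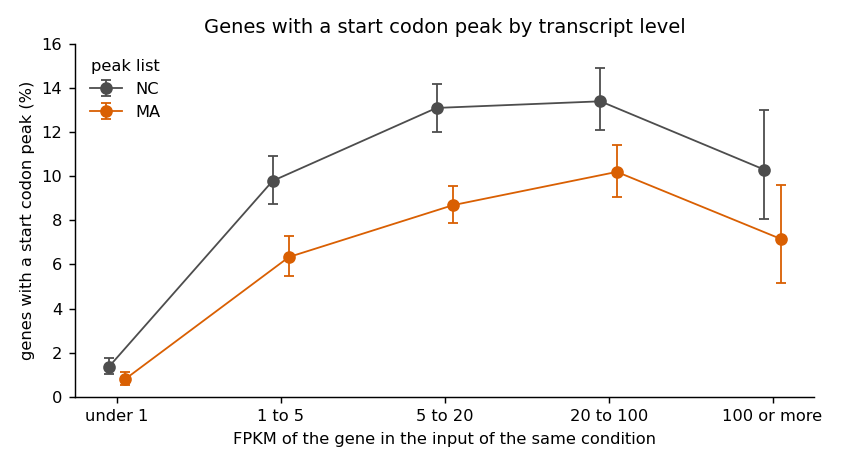
Percent of genes with a start codon peak (vertical axis) by FPKM in the input of the same condition (horizontal axis), with exact 95% intervals, NC in grey and MA in orange. Both lists are lowest under 1 FPKM, at 1.35% and 0.799%, and highest from 20 to 100 FPKM, at 13.4% and 10.2%.

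A partner is a same-strand peak in the other condition whose span, counted with its introns, overlaps by at least 1 bp. Of the NC start codon peaks, 599 (44.8%) had a start codon peak of MA as partner, 243 (18.2%) only peaks with another annotation and 496 (37.1%, 34.5 to 39.7) none. Over all NC peaks 26.2% had no partner. Of the MA start codon peaks, 597 (62.6%) had a start codon partner, 155 (16.2%) only others and 202 (21.2%, 18.6 to 23.9) none, where 20.3% of all MA peaks had none. In NC the interval lay above the share of all peaks, and in MA it held the share of all peaks. In NC the share with a partner, 62.9%, was the lowest of the 5 annotations, next to 67.2% for the 5' UTR and 79.5% for the stop codon. Without the peaks that began on a gene start the shares without a partner were 36.5% and 21.6%. When the lists were trimmed to the same number of peaks they were 33.0% and 28.0%. The gap between NC and MA was then smaller. The shares over all peaks of the trimmed lists were not computed.

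**Figure D3:**
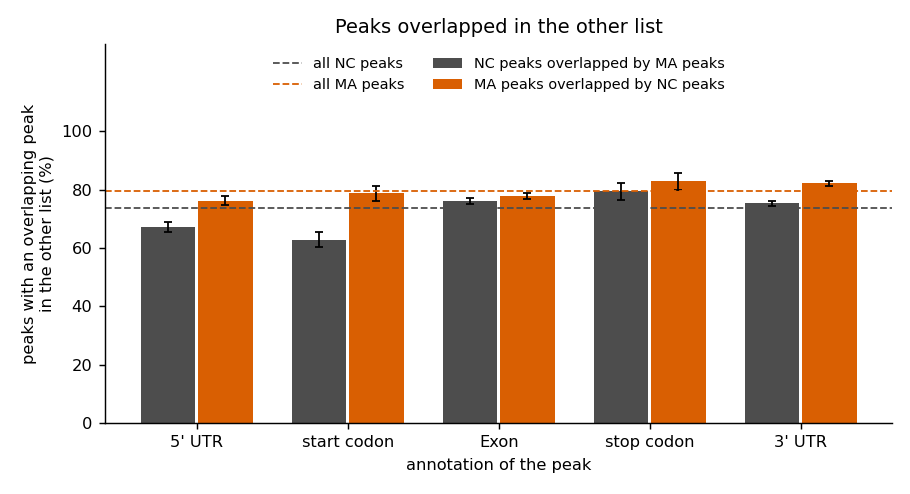
Percent of peaks with an overlapping peak in the other list (vertical axis, bars from 0) by annotation (horizontal axis), with exact 95% intervals, and all peaks of each list as dashed lines. Start codon peaks of NC, at 62.9%, lie below the NC line at 73.8%, and those of MA, at 78.8%, lie near the MA line at 79.7%.

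Start codon peaks that lacked a partner were shorter and had lower folds than those with a start codon partner, with values near those of all peaks without one (199 bp and a fold of 3.00 in NC, 200.0 bp and 2.52 in MA). Their median length was 199 bp in NC and 195 bp in MA, and their median fold 3.00 and 2.63, against 301 bp in both lists and folds of 3.56 and 3.00 for peaks with a start codon partner. For 385 of the 496 NC peaks (77.6%) and 166 of the 202 MA peaks (82.2%) the gene had a peak elsewhere in the other list, as for 76.8% and 82.1% of all peaks without a partner. The remaining 111 and 36 peaks were in genes with no peak at all in the other list.

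The largest folds among unpartnered NC peaks, in genes with at least 5 FPKM in each input, were in MEMO1, NUDT4, SSBP1 and HDAC6. Their false discovery rates, in this order, were 4.17e-06, 6.31e-08, 6.61e-06 and 5.13e-03, so the order by fold is not that by rate. After MEMO1 at 24.0 (chr2:31943013-31950687, minus strand, 250 bp of exon), NUDT4, a diphosphoinositol polyphosphate phosphatase, stood at 14.0 (chr12:93378274-93378656). SSBP1, the mitochondrial single-stranded DNA binding protein, was also at 14.0 (chr7:141738469-141738678), and the tubulin deacetylase HDAC6 followed (chrX:48801890-48802188). In the inputs MEMO1 was at 9.53 FPKM in NC and 7.55 in MA, NUDT4 at 14.7 FPKM in NC and 34.6 in MA, SSBP1 at 24.5 and 34.9 and HDAC6 at 11.4 and 13.8. The others of the 8 were TMED3, CEP170, ESPL1 (false discovery rate 6.46e-03) and UBE2D3, with folds of 8.00 to 10.0.

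The unpartnered MA peaks of highest fold, under the same condition on FPKM, were in CGGBP1, STK4 and PARL. Their false discovery rates, in this order, were 4.27e-07, 2.51e-06 and 7.24e-03. CGGBP1, which binds CGG repeats, had 7.00 (chr3:88058926-88149721). STK4, a kinase of the Hippo pathway (chr20:44966570-44970391), and PARL, a rhomboid protease of the mitochondrial inner membrane (chr3:183884753-183884901), came next, ahead of CHD1L, a chromatin remodeller, at 5.50. These 4 genes were higher in the MA input, at 48.1 against 24.8 FPKM for CGGBP1, 16.7 against 11.1 for STK4, 19.2 against 12.1 for PARL and 29.1 against 21.7 for CHD1L. Of the others, PPP2R3C was also higher in MA, CALM3 was at 62.5 against 61.6 and DDX11 was lower, at 8.60 against 10.2.

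In 812 pairs each peak had only the other as partner and at least 1 was labelled start codon. Of these 101 (12.4%) were identical and 300 (36.9%) had the same 5' edge, beside 10.5% and 30.5% of all 11840 pairs. All 101 identical pairs were among the 493 labelled start codon in both lists, a label that itself moved with the 5' edge. Of these 493 pairs 20.5% were identical and 55.4% had the same 5' edge. For the 1395 pairs labelled 5' UTR in both lists the shares were 13.8% and 43.6%. In these 493 MA was longer in 175 and NC in 201. DCT, an enzyme of melanin synthesis, had the same peak in both lists (chr13:94479199-94489390, 498 bp, folds 3.64 and 4.00 in NC and MA). CCN2, a matricellular growth factor and YAP target, likewise had 1 peak at the same position (chr6:131951173-131951372), which began on the gene start.

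Many label differences came with a shifted 5' edge. In 143 pairs the NC peak was labelled start codon and the MA peak 5' UTR. In 132 of them (92.3%) the MA edge lay further downstream, and in 102 (71.3%) the NC peak was longer. Over all 11840 pairs these shares were 31.7% and 38.9%. The NC edge was on the gene start in 32 of the 143. In AJUBA, a LIM protein of cell junctions, the NC peak ran over 499 bp (chr14:22982053-22982551) and began at the gene start, and the MA peak ended at the same base downstream but covered 300 bp and was labelled 5' UTR. ARMCX6 and NUFIP2 had the same arrangement, with MA peaks of 892 against 942 bp and of 251 against 301 bp. In the opposite direction 92 pairs were 5' UTR in NC and start codon in MA. The MA edge was further upstream in 69 of them, beside 4479 of all 11840 pairs.

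Of the start codon peaks with a start codon partner, in genes with at least 5 FPKM in each input, those of ZFAND3 and WIPF2 in NC and of AP1B1 in MA had the highest folds. Over all start codon peaks the folds reached 24.0 in NC and 81.0 in MA. The ZFAND3 peak had a fold of 15.0 (chr6:37819977-38016869, 201 bp of exon). WIPF2, a partner of WASP in actin assembly, was at 14.0 (chr17:40219354-40219876). AP1B1, a subunit of the AP-1 clathrin adaptor, had folds of 10.0 in NC and 14.1 in MA and began on the gene start in both lists. EIF3CL, at 11.5 in NC, is a near-identical copy of EIF3C, so its reads are uncertain.

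The median input difference was highest for genes whose start codon peak was in MA only, a set that is not independent of the inputs. The input difference of a gene is log2((MA FPKM + 1)/(NC FPKM + 1)), and genes that reached 1 FPKM in either input were tested. The median was 0.41 (0.29 to 0.50) over 303 genes with the peak in MA only, 0.21 (0.12 to 0.28) over 572 with it in both and 0.04 (-0.02 to 0.09) over 649 with it in NC only, beside 0.11 over all 10564 tested genes. After the median of all genes was set to 0 the 3 values were 0.30, 0.10 and -0.07. Of the MA only genes 64 (21.1%) were 2-fold or more higher in MA, where 10.3% of all tested genes were, and 11 (3.63%) were 2-fold or more lower, where 2.98% were. Of the genes with the peak in both lists 65 (11.4%) were higher and 22 lower, and of the NC only genes 54 (8.32%) and 22. Median levels in the MA only set were 6.63 FPKM in NC and 11.1 in MA, in the NC only set 11.3 and 11.9. The share of genes with a start codon peak differed with the level in the same input, so the sets were partly chosen by the inputs compared here. The differences between sets are therefore not a separate result about start codon peaks. The part of transcript level in these sets was not tested.

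**Figure D4:**
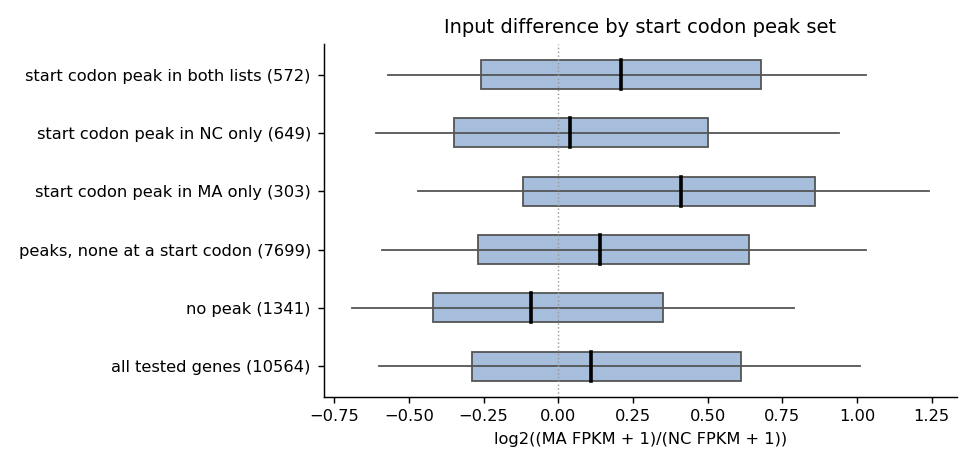
Input difference log2((MA FPKM + 1)/(NC FPKM + 1)) (horizontal axis) for each set of genes (vertical axis, number of genes in brackets), with the median as a black line, the quartiles as a box and the 10th and 90th percentiles as a line. The median is highest for genes with a start codon peak in MA only, at 0.41, and lowest for genes without a peak, at -0.09.

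Among genes with a start codon peak that reached 5 FPKM in an input, CCN2 had the highest input difference with the added 1. It was at 16.4 FPKM in NC and 117 in MA, a log2 difference of 2.76 and of 2.84 without the added 1 (95% interval 2.72 to 2.95 from the recovered reads), with a start codon peak in both lists. RCAN1, an inhibitor of calcineurin, was at 10.7 and 61.9 FPKM (2.43), also with a peak in both. SLC30A1, a zinc exporter, was at 1.22 and 13.5 FPKM (2.70), and without the added 1 it was above CCN2, at 3.46 (3.28 to 3.64). CPEB4, a regulator of cytoplasmic polyadenylation, was at 2.99 and 16.3 (2.12). SLC30A1 and CPEB4 had a start codon peak in NC only. The CPEB4 peak overlapped an MA peak labelled Exon, and the SLC30A1 peak overlapped none. CDH19 was at 2.12 and 14.5 FPKM with a start codon peak in both lists, and SMC1B, MIA2 and ZMYM5 had one in MA only. The SMC1B peak overlapped an NC peak labelled Exon and the ZMYM5 peak one labelled 5' UTR.

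At the other end stood MBP, GALNT3, IL17D and MLPH. MBP was at 56.1 FPKM in NC and 8.40 in MA (-2.60), and its 3 start codon peaks in NC stood beside 1 in MA. GALNT3, which starts O-linked glycosylation, was at 11.8 and 1.85 FPKM (-2.17). IL17D, a cytokine, was at 5.32 and 0.449 FPKM (-2.13), and without the added 1 it was the lowest of the 8 named, at -3.57 (-3.99 to -3.17). MLPH, melanophilin, which links melanosomes to actin motors, was at 88.9 and 20.4 FPKM (-2.07). Start codon peaks of GALNT3, IL17D and MLPH were listed in both conditions, as were those of PLEKHH1 and RAB17. PNPLA6, a lysophospholipase, was at 26.3 and 6.84 FPKM with a start codon peak in MA only. QDPR, which regenerates tetrahydrobiopterin, was at 105 and 32.6 with one in NC only.

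Among 25 gene lists, 58 of 401 genes (14.5%, 386 of the 401 tested) had a start codon peak, and 14.4% of all tested genes did. Of 15 melanocyte lineage genes 5 had one. DCT, SOX10, MLPH and EDNRB had it in both lists and MITF in MA only. Of these DCT (191 FPKM in NC and 65.2 in MA), MLPH and the endothelin receptor EDNRB (85.0 and 32.9) were 2-fold or more lower in MA, while SOX10, a transcription factor of the neural crest, was at 488 and 274. The median input difference over the 12 tested genes of the list was -1.40.

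Of 9 m6A writer genes 3 had a start codon peak (33.3%, beside the 14.4% of all tested genes), WTAP in both lists and METTL3 and ZC3H13 in NC only. The METTL3 peak had a fold of 2.87 in NC (chr14:21511141-21511340, false discovery rate 6.03e-02) and began on the gene start, and the gene was at 33.6 FPKM in NC and 26.7 in MA. WTAP had 2 in NC and 1 in MA, with input levels of 7.25 and 13.9 FPKM. The MA peak had a fold of 1.62 (false discovery rate 6.03e-02), and the NC peaks had folds of 8.00 and 5.00 (4.90e-04 each). The MA peak and one of the NC peaks shared only the end base of their spans. Neither eraser had a start codon peak: FTO was at 2.15 and 2.95 FPKM, with 2 peaks elsewhere in each list, and ALKBH5 was at 23.4 and 22.9, with 4 and 2. Of 12 readers 3 had one: YTHDF3 and IGF2BP3 in both lists and IGF2BP2 in NC only. YTHDF3 was at 9.80 FPKM in NC and 17.6 in MA, IGF2BP3 at 11.2 and 20.6 and IGF2BP2 at 27.3 and 24.6.

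None of the 13 eIF3 subunits listed had a start codon peak, where 14.4% of all tested genes did, and 11 had a peak elsewhere. EIF3CL, the near-identical copy of EIF3C, was not on that list and had a start codon peak in both conditions, so the count for EIF3C is uncertain. Of 25 other initiation factors 4 had one, EIF4G3 and EIF1AX in both lists and EIF4E2 and EIF4G2 in NC only. The span of the EIF4E2 peak overlapped that of an MA peak labelled Exon. EIF1AX, which is often mutated in uveal melanoma and helps the ribosome find the start codon, had folds of 2.86 in NC and 2.25 in MA, and both peaks began on the gene start. It was at 15.4 FPKM in NC and 24.6 in MA. None of 27 proteasome subunits and none of 13 ATF4 response genes had a start codon peak. A peak of any kind was in 18 of the 27 and 11 of the 13, beside 9223 of all 10564 tested genes. Whether these lists differ from the 14.4% of all tested genes was not tested.

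Of 20 genes of cholesterol synthesis, FDPS and DHCR7 had start codon peaks in both lists, FDFT1 in NC only and NSDHL in MA only. The NSDHL peak overlapped an NC peak labelled 5' UTR. DHCR7, which makes the last step to cholesterol, was at 38.3 FPKM in NC and 131 in MA (1.75), with its peak on the gene start in both lists at folds of 1.95 and 1.69. FDPS, farnesyl diphosphate synthase, was at 158 and 294 FPKM. Among the uveal melanoma genes GNAQ, whose mutations activate signalling in this tumour, had a start codon peak of fold 2.00 in each list, and its transcript was at 6.04 FPKM in NC and 13.4 in MA. RASGRP3, a target of that signalling, was at 56.3 and 40.9 FPKM with a start codon peak in NC only. That peak overlapped an MA peak labelled 5' UTR.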

How the data were processed

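The series holds 4 libraries of OMM2.3 cells, 1 input and 1 m6A RIP for each of MA and NC. The authors deposited FPKM values per gene for the inputs and 1 annotated peak list per condition. Each peak's p-value, false discovery rate and fold enrichment over input are the authors', per the file headers. Per the submitters' processing notes, the build was GRCh38.p13 and the tools included ChIPseeker, deepTools, HISAT, HISAT2 and Trimmomatic. The peak caller is not given in the sources used here, nor is the gene annotation release.

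Rows repeating a peak were dropped (132 in NC, 99 in MA), and starts were raised by 1. The planned overlap over exons could not be computed, since the lists give only the span and the total exonic length, so spans were compared. RefSeq gene starts are those of GRCh38.p14; 1147 of 1338 NC and 820 of 954 MA start codon peaks were in matched genes. Patch releases leave the primary chromosomes unchanged. Read totals were estimated from the FPKM values. The total was taken where the most genes had their reference span as length, 112 genes against 26 at the next best total. Of 13055 genes listed above 0 in each input, 99.9% gave whole reads, against 2.75% after a shift of the values. A multiple of the totals would give whole reads too, so this share does not fix the totals. Input comparisons used a pseudocount of 1 and genes that reached 1 FPKM in either input. Shares have exact Clopper-Pearson 95% intervals, and medians have order-statistic intervals over genes, which are not replicates. The labels mention no molecular identifiers, and PCR copies are not independent molecules.

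Named are the 8 start codon peaks of highest fold per list and partner class in genes with at least 5 FPKM in each input, the 8 genes with the highest and lowest input difference, up to 4 members per gene list, and all m6A writers, erasers and readers. Some items that this rule names are not reported here. Sequences on chromosome 8 are not printed. The examples of matched edges and the printed sequences were chosen after their values were seen. The members and lists were chosen with earlier results of these data known. The steps were tested on simulated data, where 3000 peaks were all classed as made. The simulated peaks held no introns, so overlap through introns was not tested. Among 10564 genes, 200 with a mean of at least 5 FPKM were given a 4-fold difference. With counting noise only, 100.0% of these were counted as 2-fold or more, which says nothing of variation between libraries. Of 2000 genes checked there for whole reads, with the library totals given rather than estimated, 82.3% gave the true reads. With whole fractions of the true reads included, the share was 99.9%. The recovered reads of a gene, and intervals from them, can thus rest on a fraction of its true reads. Alternatives varied the fold minimum, list length, overlap, FPKM filter, pseudocount, scaling and strand. Python 3.11.15, pandas 2.3.3, numpy 2.4.6, scipy 1.17.1 and matplotlib 3.10.9 were used.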

Additional observations from a re-analysis of the deposited data

How the results depend on the processing

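No paired analysis was possible because each condition had 1 library of each kind and the labels give no replicate numbers. Without replicates, the difference between lists cannot be told apart from that between library preparations, and overlap over spans can count peaks that share only introns. Of 125 alternative values over 21 results, 75 stayed within the 95% interval of the reported value or within 1.5 times a count, and 50 did not. The settings on gene-start edges, on strand and on peaks within 1 exon in both lists were chosen after seeing the data.

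The shares of start codon peaks, NC then MA, were 5.72% and 4.49% at a fold of at least 3, 7.45% and 5.67% in genes with at least 5 FPKM in each input and 5.09% and 4.21% without peaks that began on a gene start. NC was at 5.41% on the plus and 6.78% on the minus strand. The shares with a start codon partner and without any were 35.1% and 54.9% in NC and 49.2% and 41.7% in MA when an overlap of 50% of both spans was required. They were 35.2% and 54.0%, and 57.9% and 30.4%, for peaks within 1 exon in both lists. With lists of equal length they were 47.7% and 33.0%, and 57.1% and 28.0%. For peaks with a fold of at least 3, NC had 49.5% and 30.2%, and MA had 17.2% without a partner. In genes with at least 5 FPKM in each input MA had 67.5% and 16.4%. By strand, NC start codon partners were 49.0% on the plus and 41.1% on the minus strand, and MA peaks without a partner 24.3% and 17.8%. NC exceeded MA in the share without a partner under each of these settings. The shares over all peaks were not computed under them, so this is not a result about start codon peaks in particular.

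Median input differences for genes with the peak in both lists, NC only and MA only were 0.29, 0.12 and 0.54 after rescaling to TPM. With the median of all genes set to 0, which takes 0.11 from every gene, the first 2 were 0.10 and -0.07. With a pseudocount of 5 the MA only median was 0.24, and the genes 2-fold higher were 22, 19 and 17. In that setting 10 NC only and 6 MA only genes were 2-fold lower, and of all tested genes 2.58% were higher and 1.46% lower. Rescaling to TPM gave 106 higher genes in both lists and 87 in NC only (16.3% of all tested), and a median of 0 gave 42 in both lists (7.16% of all tested). Peaks within 1 exon had median lengths of 201 bp in NC and 250.0 bp in MA and a median fold of 3.17 in MA. In genes with at least 5 FPKM in each input the median folds were 3.04 and 2.75. Genes that reached 5 FPKM in either input had a start codon peak in 12.8% (NC) and 8.97% (MA), against 11.6% and 8.28% at 1 FPKM. The causes were not tested.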

Other observations

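Further gene lists held start codon peaks in both lists, in NC only and in MA only. Among 13 heat shock genes, HSP90AA1, a cytosolic chaperone, and DNAJB1, of the Hsp40 family, had a start codon peak in both lists and HSPH1 in MA only. HSP90AA1 was at 318 FPKM in NC and 567 in MA, and DNAJB1 at 58.5 and 58.0. Of 14 SR splicing factors, TRA2B, SRSF11 and SRSF7 had a start codon peak in NC only and SRSF5 in both lists. The TRA2B peak overlapped an MA peak labelled 5' UTR. SRSF11 was at 17.0 FPKM in NC and 37.9 in MA, while SRSF7 was at 50.1 and 53.2. Of 20 genes of S phase and origin licensing, CDC45 had a start codon peak in both lists, ORC1 in NC only and CLSPN and PCNA in MA only. The CLSPN peak overlapped NC peaks labelled Exon and 5' UTR. PCNA, the sliding clamp of DNA replication, was at 246 FPKM in NC and 242 in MA, with no peak listed in NC and 1 in MA. The MAPK phosphatases DUSP4 and DUSP6 had a start codon peak in NC only and SPRY2 in MA only.

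On chromosome 14 start codon peaks were 72 of 871 peaks in NC (8.27%) and 60 of 815 in MA (7.36%), beside 6.06% and 4.79% of the whole lists. This chromosome was chosen after its values were seen, and no test was made.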
